A study of Mus musculus with 45 samples.

Results

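The subject is a set of 8 mouse genes that encode multidrug efflux transporters: Abcb1a, Abcb1b, Abcc1, Abcc2, Abcc3, Abcc4, Abcc5 and Abcg2. They were chosen by gene symbol, with earlier results of these data in view, and each has 1 row in both of the deposited tables, which hold 55335 genes each. RNA sequencing was done on 2 cultured mouse tumour lines, CT26 (a colon carcinoma line) and Hepa1-6 (a liver tumour line), and levels are given in FPKM, that is, sequenced fragments per kilobase of transcript length, scaled by the number of mapped fragments. The 30 libraries fall into 10 groups of 3. In the drug experiment, wild-type CT26 and wild-type Hepa1-6 cells were kept for 48 hours with DMSO, the solvent, or with a compound that the labels call stk. In the knockdown experiment, RNA was taken 24 hours after seeding from CT26 carrying a hairpin against luciferase (shLucif, a control) or sh1, sh2 or sh3, the 3 hairpins that target Soat1, and from Hepa1-6 carrying shLucif or a scrambled hairpin. Soat1 encodes sterol O-acyltransferase 1, which esterifies cholesterol. Thus every knockdown group, controls included, carries a hairpin. Whether a hairpin line is 1 clone or a pool, and whether the 3 libraries of a group came from separate cultures, is not given in the sources used here, so p-values measure the spread between these libraries, which may be technical.

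These transporters belong to the ATP-binding cassette (ABC) superfamily, whose members use ATP to move molecules across membranes. The P-glycoprotein of humans, known for pumping anticancer drugs out of tumour cells, has a pair of counterparts in mice, encoded by Abcb1a and Abcb1b. The ABCC proteins carry organic anions, often conjugated to glutathione, glucuronate or sulphate: Abcc1 is widespread, Abcc2 sits in the canalicular membrane of hepatocytes and exports conjugates into bile, Abcc3 sits in the basolateral membrane, and Abcc4 and Abcc5 also carry cyclic nucleotides. Abcg2, the breast cancer resistance protein, is a half-transporter that works as a dimer and exports drugs and urate. Liver cells are known for Abcc2, Abcc3 and Abcg2 among others.

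Before the levels, 3 measurements bear on how they are read. Soat1 was at 19.7 to 20.2 FPKM in the CT26 shLucif libraries and at 16.4% of their mean with sh1, 17.4% with sh2 and 13.0% with sh3, as the labels have it. Unmodified Hepa1-6 cells held little of it, with 0.130, 0.131 and 0.158 FPKM with DMSO. The libraries labelled Hepa1-6 shLucif go against their label. Of 104 genes that stood at 10 FPKM or more in all CT26 DMSO libraries and under 0.1 FPKM in all Hepa1-6 DMSO libraries, 94 reached 1 FPKM in all 3 of them, against 0 in the Hepa1-6 scramble libraries, and Soat1 stood at 12.7 to 13.6 FPKM. Of 141 genes with the reverse pattern, 117 reached 1 FPKM in all 3, against 141 in scramble and 0 in CT26 shLucif, and the summed level of 15 hepatocyte markers was 16.2 to 16.6 FPKM against 327 to 364 FPKM in scramble. The cause was not tested, and the comparison of scramble with these libraries is given last. Hepa1-6 DMSO libraries held 6 of 15 hepatocyte markers at 1 FPKM or more, while CT26 DMSO libraries held 1 of 13 intestinal epithelium markers and 4 of 8 fibroblast markers. Of the intestinal epithelium markers, Hepa1-6 DMSO libraries held 7 of 13, with a summed level of 1558 to 1602 FPKM against 26.9 to 31.0 FPKM in CT26. Of the fibroblast markers, Hepa1-6 DMSO libraries held 1 of 8, with a summed level of 197 to 199 FPKM against 155 to 170 FPKM in CT26. FPKM summed over all genes lay between 314827 and 335066.6 per library of the drug experiment, and between 320249.2 and 335812.8 per library of the knockdown experiment. The number of reads behind them is unknown.

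Abcb1a and Abcb1b are neighbours on chromosome 5 of GRCm38, at chr5:8660077-8748575 and chr5:8798147-8866315, both on the plus strand with 49571 bases between them. Their coding sequences, 3831 bases each, are identical at 3363 of 3822 aligned bases (88.0%), and 20.3% of all 50-base windows of Abcb1a occur unchanged in Abcb1b. A fragment from such a window cannot be assigned to 1 of the genes by its sequence, and how the authors' counting treated it is not given in the sources used here, so the split between the pair carries this uncertainty. The longest unbroken identical stretch is 338 bases. A 105-base piece of it (exonic, positions 1534 to 1638 of the Abcb1a coding sequence and 1543 to 1647 of that of Abcb1b, GENCODE models on GRCm38) is shown because it is the same in both genes, with the codons of the ABC signature motif in capitals, the motif that marks this superfamily.
shared Abcb1a and Abcb1b coding stretch: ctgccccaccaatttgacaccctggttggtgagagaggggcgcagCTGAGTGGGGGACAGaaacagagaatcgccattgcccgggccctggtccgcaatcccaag

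The windows upstream of the pair differ. The RefSeq promoter table for GRCm38.p6 has entries for 6 of the 8 genes (Abcc1 and Abcc3 have none), with 9 windows in all. The 250 bases before the RefSeq start of Abcb1a (chr5:8566841-8567090, plus strand) and Abcb1b (chr5:8797897-8798146, plus strand) are shown. The reason is that these neighbours differed from shLucif in opposite directions with the Soat1 hairpins. The Abcb1a window ends at 8567090, far upstream of the GENCODE gene span, which begins at 8660077. The Abcb1b window ends next to its GENCODE start at 8798147. The windows are thus not placed alike, and whether these cells use this start of Abcb1a was not tested. Capitals mark the letters CCAAT and GGGCGG on either strand.
Abcb1a upstream window: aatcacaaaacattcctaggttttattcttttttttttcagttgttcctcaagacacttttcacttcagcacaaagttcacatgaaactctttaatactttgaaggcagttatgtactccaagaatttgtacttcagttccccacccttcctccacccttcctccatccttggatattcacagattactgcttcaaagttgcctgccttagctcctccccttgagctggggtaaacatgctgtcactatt
Abcb1b upstream window: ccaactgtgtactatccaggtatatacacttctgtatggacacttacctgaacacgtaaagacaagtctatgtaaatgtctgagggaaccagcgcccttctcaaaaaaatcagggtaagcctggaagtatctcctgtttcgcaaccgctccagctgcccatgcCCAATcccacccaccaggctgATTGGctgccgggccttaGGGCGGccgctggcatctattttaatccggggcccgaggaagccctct
The Abcb1b window holds CCAAT at -87 to -83, CCAAT on the other strand at -66 to -62, and GGGCGG at -48 to -43, counted from the base after the window as the start site. The Abcb1a window holds none of the 6 motifs searched on both strands: CCAAT (in 33.9% of all 32851 promoter windows of this length), GGGCGG (32.7%), TGANTCA (6.75%), TGACNNNGC (10.2%), GCGTG (28.2%) and CACGTG (6.02%). Its GC content was 40.4%, that of Abcb1b 52.8%, and the median over all windows 52.4%. A match is a description of letters, and its absence says only that these letters are not in this window.

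The lines differed in which transporters they held. All 8 genes were called between CT26 DMSO and Hepa1-6 DMSO by limma (a linear model across all genes, on log2 of FPKM + 1, with a call where the p adjusted by the Benjamini-Hochberg method was under 0.05), where 76.8% of the 12822 genes tested were called. That share is high for any gene, and 3 of the 8 passed the filter on low values through Hepa1-6 alone, so the count is not a result about the set. CT26 held 5 of the transporters and Hepa1-6 held all 8. The adjusted p-values here and below come from genes chosen with results in view and describe these libraries only. In bulk RNA, fewer cells of a type and less RNA per cell cannot be told apart.

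Abcb1b was the most abundant of the 8 in CT26, with 29.4, 32.8 and 30.5 FPKM in the DMSO libraries, against 14.9, 15.0 and 14.4 FPKM in Hepa1-6. The ranges did not overlap, and the mean was 2.09 times higher in CT26 (log2 fold change 1.01, SE 0.0485, limma adjusted p = 4.69e-09). Abcb1a stood at 10.2, 11.2 and 11.5 FPKM in CT26 and at 8.18, 8.19 and 7.88 FPKM in Hepa1-6, so its ranges were apart as well, with a smaller step (0.40, SE 0.0518, limma adjusted p = 2.9e-05). Together the pair summed to 41.9 ± 2.14 FPKM in CT26 and 22.9 ± 0.485 FPKM in Hepa1-6 (SD, n = 3), of which Abcb1a made up 26.2% and 35.3%. Since FPKM is per length, the pair can be set against the sum of all 8 genes: it made up 57.5% to 58.9% of that sum in CT26 DMSO and 23.7% to 24.3% in Hepa1-6 DMSO.

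Abcc1 (chr16:14361558-14475737, plus strand), which exports glutathione conjugates, was also higher in CT26 and stood at 7.78, 7.75 and 7.87 FPKM against 2.69, 2.79 and 2.79 FPKM in Hepa1-6. The CT26 mean was 2.83 times that of Hepa1-6 (log2 fold change 1.23, SE 0.0505, limma adjusted p = 1.25e-09). Abcc4 (chr14:118482692-118706219, minus strand), an exporter of cyclic nucleotides and other anions, was the second most abundant in CT26, at 16.8, 19.4 and 16.9 FPKM, and stood at 13.3, 13.6 and 13.4 FPKM in Hepa1-6 (0.37, SE 0.0639, limma adjusted p = 0.000265). Its lowest CT26 library lay above its highest Hepa1-6 library.

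Hepa1-6 held Abcc2, Abcc3 and Abcg2, the genes of this set named above as known from liver cells. Abcc2 (chr19:43782192-43840740, plus strand), the canalicular exporter, was the most abundant of the 8 there, at 23.7, 24.9 and 23.3 FPKM, and was listed at 0 in all 3 CT26 DMSO libraries. Abcc3 (chr11:94343295-94392997, minus strand), the basolateral exporter, stood at 11.9, 12.0 and 11.4 FPKM in Hepa1-6 and at 0 in CT26 DMSO. Abcg2 (chr6:58584523-58695676, plus strand) stood at 3.74, 3.89 and 4.31 FPKM in Hepa1-6 and was listed at 0 in every CT26 library of both experiments. No fold change is given for these 3 genes, because FPKM hold no counts and a value of 0 has no known floor. Abcc5 (chr16:20331303-20426394, minus strand), which carries cyclic nucleotides, was present in both lines, at 16.5, 17.1 and 16.6 FPKM in Hepa1-6 and 4.84, 4.71 and 4.52 FPKM in CT26. Its CT26 mean was 28.0% of that of Hepa1-6 (log2 fold change -1.64, SE 0.0536, limma adjusted p = 1.64e-10). The plot of levels in the drug experiment shows these steps between lines next to the smaller differences between DMSO and stk.

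**Figure D1:**
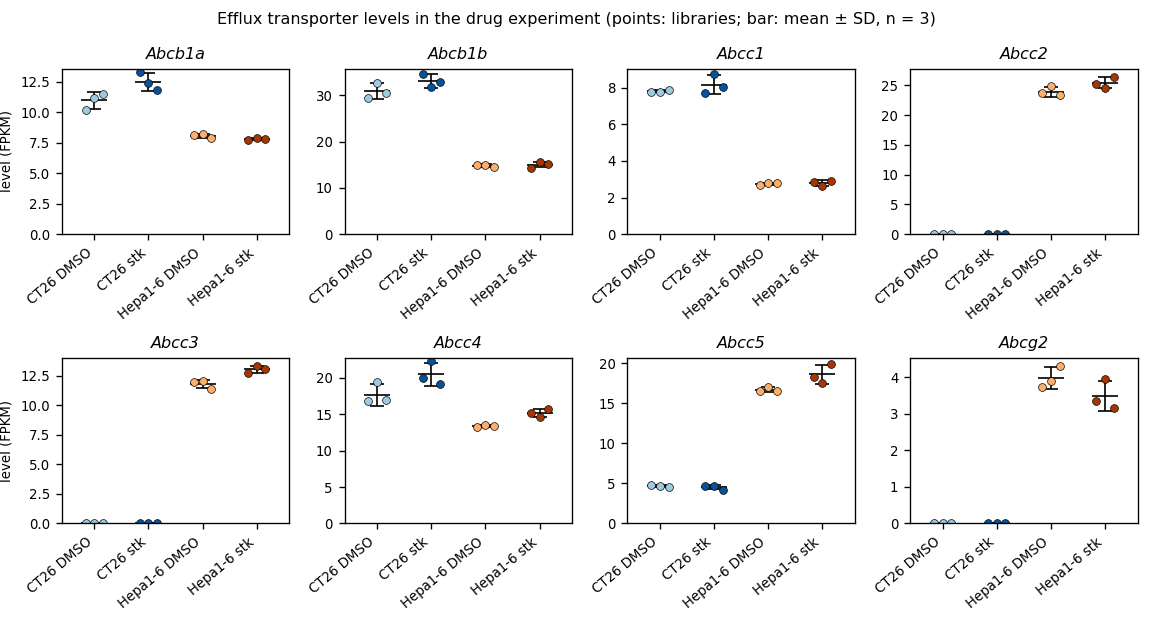
FPKM of the 8 transporters in each library of the drug experiment (points), by line and treatment, with the mean and SD of 3 libraries as bars; each panel has its own axis from 0. Abcc2, Abcc3 and Abcg2 lie at or near 0 in CT26, Abcb1b at 29.4 to 34.7 FPKM in CT26 and 14.4 to 15.5 FPKM in Hepa1-6.

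The order of the genes in each line can be read from these levels. In CT26 DMSO it ran from Abcb1b through Abcc4, Abcb1a and Abcc1 to Abcc5, and no neighbours in that order overlapped in their libraries. In Hepa1-6 DMSO it ran from Abcc2 through Abcc5, Abcb1b, Abcc4, Abcc3, Abcb1a and Abcg2 to Abcc1, again without overlap between neighbours. Opposite-strand transcripts put a further limit on the pair: 10.1% of the exon bases of Abcb1a lie opposite Gm42686 and 1.79% of those of Abcb1b opposite Gm5106, and without knowledge of the strand used in counting the reads of the partners cannot be told apart.

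The compound stk moved none of the transporters past the threshold. In CT26, 0 of the 5 genes tested were called by limma, where 0.748% of 11358 genes were called, and 2 of 5 had an unadjusted p under 0.05, as had 14.6% of all genes. In Hepa1-6, 0 of 8 were called, where 1.53% of 11426 genes were called, and 3 of 8 had an unadjusted p under 0.05, as had 23.8% of all genes. The number of genes called moved with single libraries, from 85 to between 2 and 92 in CT26 and from 175 to between 8 and 59 in Hepa1-6, while the transporter counts stayed at 0. A count of 0 does not show that the levels were alike. The comparison asks which genes respond to the compound.

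Abcb1a in CT26 was the 1 gene of that line whose stk libraries all lay above the DMSO libraries, at 13.3, 12.4 and 11.8 FPKM against 10.2, 11.2 and 11.5 FPKM, a state that 21.4% of all genes tested in CT26 shared in 1 direction or the other. The means differed by a factor of 1.14 (log2 fold change 0.17, SE 0.0636, limma adjusted p = 0.292). Abcb1b stood at 34.7, 31.8 and 32.9 FPKM with stk, which overlapped its DMSO range (0.10, SE 0.0537, limma adjusted p = 0.47). Abcc4, at 20.0, 22.3 and 19.2 FPKM with stk, overlapped through its second DMSO library (0.20, SE 0.077, limma adjusted p = 0.303). Abcc1 at 7.72, 8.72 and 8.04 FPKM with stk spanned its DMSO values. Abcc5 at 4.70, 4.68 and 4.20 FPKM with stk overlapped the lower end of its DMSO range. Abcc2 and Abcc3 each had 1 stk library at 0.02 FPKM and the others at 0, below the minimum for testing.

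In Hepa1-6, Abcc4 went from 13.3, 13.6 and 13.4 FPKM with DMSO to 15.2, 14.7 and 15.8 FPKM with stk. All 3 stk libraries lay higher, with a mean ratio of 1.14, and the difference did not pass the threshold (log2 fold change 0.17, SE 0.0428, limma adjusted p = 0.0842). Abcc3 at 12.7, 13.3 and 13.1 FPKM (0.14, SE 0.0438, limma adjusted p = 0.136) and Abcc5 at 18.4, 17.6 and 19.9 FPKM (0.14, SE 0.0525, limma adjusted p = 0.167) also lay wholly above their DMSO libraries. These 3 of 8 genes compare with 30.8% of all genes tested in Hepa1-6 whose groups did not overlap, a share close to theirs.

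The 4 genes of Hepa1-6 with the smallest steps overlapped between treatments. Abcc2 stood at 25.2, 24.6 and 26.5 FPKM with stk and Abcb1b at 14.4, 15.5 and 15.2 FPKM, while Abcb1a was at 7.77, 7.88 and 7.77 FPKM and Abcc1 at 2.82, 2.62 and 2.92 FPKM. Abcg2 stood at 3.35, 3.94 and 3.15 FPKM against 3.74, 3.89 and 4.31 FPKM, with overlap and a mean at 87.4% of that with DMSO (log2 fold change -0.15, SE 0.0855, limma adjusted p = 0.321). For the difference between the lines in response, 0 of 8 genes were called by limma, where 0.304% of 12822 genes were called. Of the 8, 2 had an unadjusted p under 0.05, as had 13.9% of all genes. Abcc2, Abcc3 and Abcg2 were at or near 0 in CT26 and entered this test through Hepa1-6 alone. For these genes the test restates the Hepa1-6 change with its sign turned and cannot compare the lines. The largest difference among the 8 was that of Abcb1a (0.22, SE 0.0732, limma adjusted p = 0.238).

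In CT26, Abcb1a was higher and Abcb1b lower with each Soat1 hairpin than with shLucif. Of the 5 genes tested, 3 were called with sh1, where 37.8% of 11832 genes were called, 2 with sh2 (38.9%) and 2 with sh3 (52.5%), and the mean of the 3 hairpins called 2 of 5 (43.1%). These counts are close to the background of each comparison. The 3 comparisons share the same shLucif libraries, so a low or high control library would move all of them together. The comparison asks how CT26 cells with less Soat1 RNA differ from those with the control hairpin.

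Abcb1a stood at 10.9, 10.9 and 10.3 FPKM with shLucif, at 18.6, 18.8 and 18.8 FPKM with sh1, at 17.3, 20.0 and 17.3 FPKM with sh2, and at 21.7, 22.9 and 22.5 FPKM with sh3. Every hairpin library lay above every control library, and sh3 lay above both other hairpins. The means were 1.75, 1.70 and 2.09 times that of the control. Over the 3 hairpins Abcb1a rose with a log2 fold change of 0.82 (SE 0.0442, limma adjusted p = 2.35e-07), a change that ranked 170 by size among the 11832 genes tested. The rise was 0.75 with sh1, 0.71 with sh2 and 0.99 with sh3, each with SE 0.0541.

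Abcb1b was higher than Abcb1a throughout but lower with each Soat1 hairpin than with shLucif. Its control libraries stood at 49.96, 50.72 and 49.52 FPKM, against 42.1, 39.9 and 40.7 FPKM with sh1, 37.4, 39.3 and 39.9 FPKM with sh2, and 37.1, 40.4 and 40.2 FPKM with sh3. All hairpin libraries lay below all control libraries, at 81.7%, 77.6% and 78.4% of the control mean, and the 3 hairpins overlapped one another. Against shLucif, the log2 fold change of Abcb1b over the hairpins was -0.33 (SE 0.0338, limma adjusted p = 2.09e-05). In the CT26 DMSO libraries of the drug experiment, normalized apart, Abcb1b stood at 29.4 to 32.8 FPKM, below every Soat1 hairpin library.

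The sum of the pair moved less than either gene. The control libraries summed to 60.8 ± 0.917 FPKM, those of sh1 to 59.6 ± 1.03, those of sh2 to 57.1 ± 2.28 and those of sh3 to 61.6 ± 2.44 FPKM (SD, n = 3), with sh1 and sh3 overlapping the control range and all 3 sh2 libraries below it. Abcb1a made up 17.2% to 17.9% of the sum in the control libraries, 30.6% to 32.0% with sh1, 30.3% to 33.8% with sh2 and 35.9% to 36.8% with sh3. The CT26 DMSO libraries of the drug experiment, which were normalized apart, held 25.4% to 27.4%, between the control and hairpin libraries. The plot of the pair shows the levels, the sum and the share side by side.

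**Figure D2:**
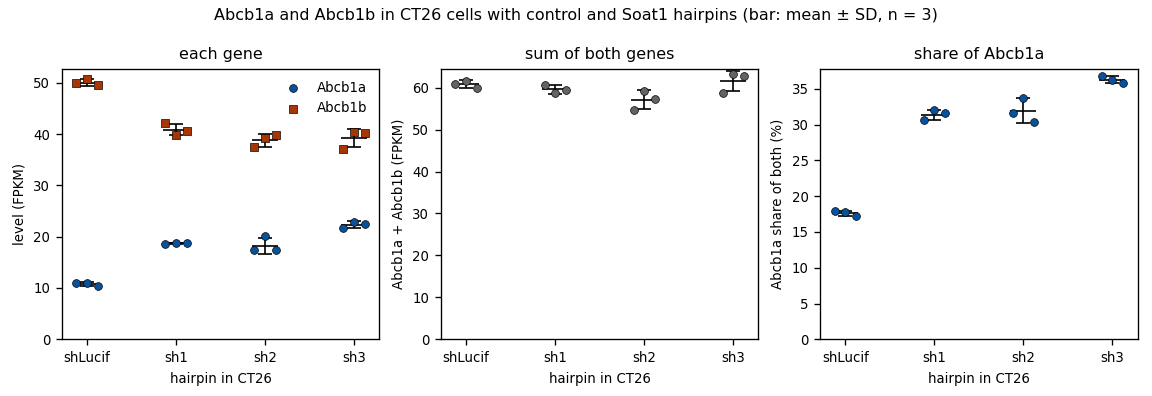
Abcb1a and Abcb1b in the CT26 libraries with shLucif, sh1, sh2 and sh3: FPKM of each gene (left), the sum of both in FPKM (middle) and Abcb1a as a percent of the sum (right), with points for libraries and bars for the mean and SD of 3. Abcb1a rises from 10.3 to 10.9 FPKM with shLucif to 17.3 to 22.9 FPKM with the hairpins, while the sum stays between 54.8 and 63.3 FPKM.

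The calls of Abcc4 under the hairpins turned on 1 library. It stood at 18.0, 19.0 and 18.4 FPKM with shLucif, at 26.6, 16.7 and 24.8 FPKM with sh1, at 21.3, 22.9 and 22.4 FPKM with sh2, and at 16.2, 15.7 and 16.2 FPKM with sh3. With sh2 every library lay above the control and with sh3 every library lay below it, while the second sh1 library lay below the control and the other sh1 libraries above. With all libraries none of these was called by limma (log2 fold change 0.26 and adjusted p = 0.134 with sh1, 0.25 and 0.139 with sh2, -0.19 and 0.224 with sh3, SE 0.126 each). Without the second sh1 library, a repeat chosen after seeing the data for sh2 and sh3, Abcc4 was called with all 3: higher with sh1 (0.45, limma adjusted p = 7.96e-05) and sh2 (0.25, 0.00122) and lower with sh3 (-0.19, 0.00363). The mean of the 3 hairpins, not called with all libraries (0.11, SE 0.103, limma adjusted p = 0.439), was called without it as well (0.17, 0.0035). Over all alternatives for the single hairpins the adjusted p ran from these values up to 0.429, 0.289 and 0.388. That library did not stand apart in Abcb1a (18.8 FPKM) or Abcb1b (39.9 FPKM), and why it differs in Abcc4 was not tested.

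Hairpin sh3 could be set directly against the mean of sh1 and sh2, a comparison in which 3 of 5 genes were called and 60.2% of all genes were called. Abcc4 was lower with sh3 by a log2 fold change of -0.45 (SE 0.109, limma adjusted p = 0.00423), and Abcb1a was higher by 0.26 (SE 0.0469, limma adjusted p = 0.000523). Abcc1 stood at 8.17, 8.75 and 8.57 FPKM with shLucif, 9.65, 9.42 and 9.01 FPKM with sh1, 8.88, 9.24 and 8.76 FPKM with sh2, and 7.98, 7.89 and 7.90 FPKM with sh3. The sh3 libraries lay lowest, while the sh1 and sh2 libraries overlapped, and sh3 was lower than the mean of sh1 and sh2 by a log2 fold change of -0.19 (SE 0.0365, limma adjusted p = 0.00101). Against the control, Abcc1 was called with sh1 (0.13, SE 0.0422, limma adjusted p = 0.0366, range over the alternatives 0.0262 to 0.13) and, under quantile normalization alone, with sh3 (-0.15, adjusted p = 0.00836, range 0.00836 to 0.259). The sh1 call was lost without shLucif library 1 (adjusted p = 0.13) or 3 (0.0718) and without sh1 library 1 (0.114) or 2 (0.0928).

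Abcc5 showed no step under the hairpins that passed the test. Its libraries stood at 4.40, 4.88 and 4.17 FPKM with shLucif, 4.36, 4.70 and 4.66 FPKM with sh1, 4.18, 4.78 and 4.64 FPKM with sh2, and 4.91, 4.92 and 4.76 FPKM with sh3, and each hairpin overlapped the control (mean of the hairpins 0.05, SE 0.05, limma adjusted p = 0.492). Abcc2 was at 0.0272 FPKM or less in all 12 of these libraries, Abcc3 was listed at 0 in all but 1 sh3 library at 0.0114 FPKM, and Abcg2 was listed at 0 in all. These 3 genes were thus at or near 0 in CT26 with DMSO, with the control hairpin and with each Soat1 hairpin. Over the hairpins, summed levels of 13 intestinal epithelium markers were 44.9 to 49.4 FPKM with sh3 against 25.1 to 25.5 FPKM with shLucif, 27.4 to 37.6 FPKM with sh1 and 25.7 to 30.1 FPKM with sh2. Those of 8 fibroblast markers were 181 to 189 FPKM with sh3 against 128 to 130 FPKM with shLucif, 126 to 131 FPKM with sh1 and 116 to 126 FPKM with sh2, and their part in the transporter levels was not tested.

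**Figure D3:**
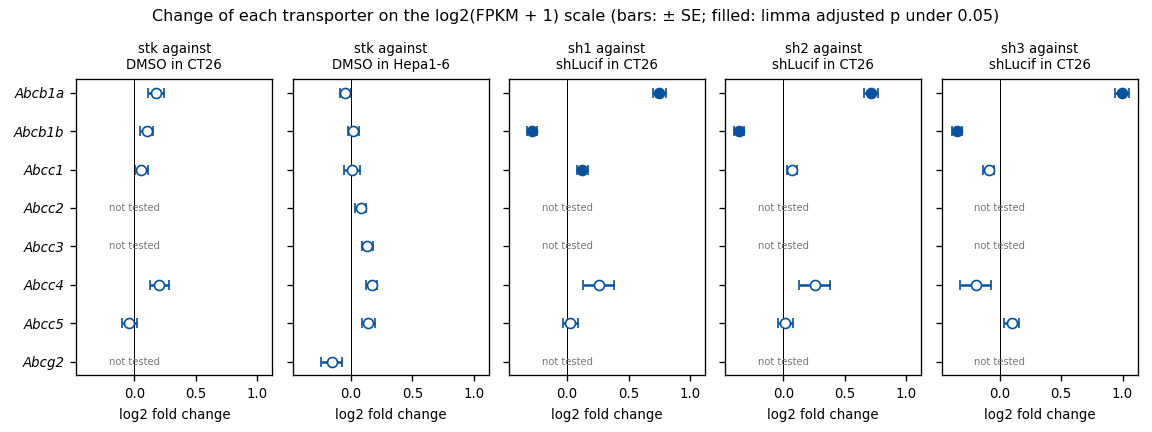
Log2 fold change of each transporter on the log2(FPKM + 1) scale with its SE, for stk against DMSO in each line and for each Soat1 hairpin against shLucif in CT26; filled points passed the limma threshold. The filled points are Abcb1a and Abcb1b with all 3 hairpins, on opposite sides of 0, and Abcc1 with sh1.

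Some genes followed the transporters closely over the 12 CT26 knockdown libraries, named by their Pearson r of log2(FPKM + 1) as a description, since the libraries fall into 4 groups. Cd109, a surface glycoprotein, followed Abcb1a most closely (r = 0.99), then Slc45a4 (0.989). For Abcb1b these were Krt80 (0.972), a keratin, and Chrnb1 (0.97), and for Abcc1 they were Mdh2 (0.966), the mitochondrial malate dehydrogenase, and Coasy (0.963), an enzyme of coenzyme A synthesis. Abcc4 was followed by an unnamed gene (ENSMUSG00000115344, 0.959) and Arid5a (0.94), and Abcc5 less closely by Ocrl (0.865) and Nhlrc2 (0.848).

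Other genes of drug transport were counted from lists of the pathway. With the mean of the 3 hairpins, 23.4% of all genes tested rose and 19.8% fell, the background for the counts of each list. In the first list, 3 of the 6 other ABCB genes tested rose and 1 fell (median log2 fold change 0.23, against 0.01 over all genes), among them Tap1 (0.60, limma adjusted p = 0.000109), a peptide transporter of antigen presentation. The Tap1 mean was 6.26 FPKM in the control and 15.6, 15.5 and 3.81 FPKM with sh1, sh2 and sh3. Of 5 ABCA and ABCG lipid transporters tested, 3 rose and 0 fell (median 0.18), led by Abca1, the cholesterol exporter (0.64, limma adjusted p = 6.66e-06). Abca1 had fallen with stk, from 3.95 ± 0.303 to 1.45 ± 0.169 FPKM in CT26 (-1.02, limma adjusted p = 0.0113) and from 5.79 ± 0.727 to 3.15 ± 0.358 FPKM in Hepa1-6 (-0.71, limma adjusted p = 0.0422; SD, n = 3). It was the 1 gene of all ABC lists that stk moved past the threshold in either line. Whether the Abca1 calls hold in the alternatives was not tested, and the stk counts over all genes moved with single libraries.

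The lists that supply or regulate the transporters were mixed under the hairpins, and their counts are read against the same 23.4% higher and 19.8% lower over all genes. Of 16 genes of glutathione supply and glutathione transferases tested, 6 rose and 4 fell with the mean of the 3 hairpins (median 0.18), led by Gsto1, an omega-class transferase (1.10, limma adjusted p = 1.15e-05). Of 19 targets of NRF2, the factor that drives antioxidant genes, 10 rose and 3 fell (median 0.23), led by Tkt, transketolase (0.62, limma adjusted p = 8.61e-07). Among 10 regulators of efflux genes, 2 rose and 1 fell (median -0.07), and Ahr, the xenobiotic receptor, had means of 4.33 FPKM in the control and 3.77, 4.17 and 10.2 FPKM with sh1, sh2 and sh3. Of 7 scaffold and vault genes, 1 rose and 4 fell (median -0.15), with Slc9a3r2, a PDZ scaffold of membrane proteins, at 11.8 FPKM in the control and 3.94, 4.13 and 17.2 FPKM with sh1, sh2 and sh3. Solute carriers of drugs were split, with 2 of 6 higher and 2 lower (median -0.02). Of 6 genes of glucuronidation and sulphation, 2 rose (median 0.33). Single hairpins differed. Of the 6 solute carriers, 1 rose and 2 fell with sh1, 1 and 3 with sh2, and 5 and 1 with sh3. Of the 6 glucuronidation and sulphation genes, 4 rose and 0 fell with sh1 and with sh2, and 2 and 1 with sh3. Their medians were 0.53, 0.53 and -0.29. Of the 7 scaffold and vault genes, 0 rose and 2 fell with sh1, 1 and 2 with sh2, and 4 and 2 with sh3. Over all genes, 19.1% rose and 18.7% fell with sh1, 18.9% and 20% with sh2, and 30.9% and 21.6% with sh3.

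The same lists were counted between the lines, where 38.5% of all genes tested were higher and 38.4% lower in CT26, so that a list with most of its genes called is near the background. Of 8 glucuronidation and sulphation genes tested between CT26 DMSO and Hepa1-6 DMSO, 2 were higher and 6 lower in CT26 (median -1.70, against -0.01 over all genes), among them Ugt2b34, a glucuronosyltransferase, listed at 0 in CT26 and at 11.8 FPKM in Hepa1-6. Hnf4a, a liver transcription factor among 12 regulators (3 higher, 6 lower, median -0.28), stood at 40.5 FPKM in Hepa1-6 and at 0.00324 FPKM in CT26. Scaffolds differed in both directions (4 of 7 higher, 2 lower, median 0.20), with Msn, moesin, at 4.33 FPKM in CT26 and 72.7 in Hepa1-6, and Rdx, radixin, an anchor of Abcc2 in hepatocytes, at 62.6 and 39.2 FPKM. Of 21 glutathione genes 6 were higher and 11 lower (median -0.29), and of 21 NRF2 targets 10 were higher and 8 lower (median 0.11).

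Scramble against the libraries labelled Hepa1-6 shLucif called 8 of 8 transporters, where 68.2% of 12055 genes were called. Abcg2 passed the filter on low values through scramble alone, so the count is not a result about the set. The libraries labelled shLucif, against which scramble is set, go against their label. Abcc2 stood at 35.6, 35.0 and 37.0 FPKM with scramble and at 9.49, 9.62 and 10.7 FPKM in the libraries labelled shLucif. Abcc3 was at 14.2, 15.3 and 15.7 against 2.66, 2.87 and 2.85 FPKM, and Abcg2 at 3.38, 3.28 and 2.93 against 0.704, 0.809 and 0.714 FPKM. These 3 genes, all near 0 in CT26, were lower in the libraries labelled shLucif, as was Abcc5 (14.0, 14.1 and 14.4 against 8.17, 7.49 and 7.89 FPKM).

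The genes that were higher in CT26 were higher in those libraries, with 1 exception. Abcb1b stood at 14.6, 14.8 and 13.7 FPKM with scramble and 36.1, 35.5 and 33.8 FPKM in the libraries labelled shLucif. Abcc1 was at 3.34, 3.62 and 3.34 against 7.70, 8.57 and 8.37 FPKM, and Abcb1a at 8.98, 8.82 and 8.08 against 13.1, 13.3 and 13.1 FPKM. Abcc4 was the exception, at 19.3, 18.5 and 19.2 against 9.81, 10.5 and 10.7 FPKM. The log2 fold changes ran from -1.23 (Abcb1b, SE 0.045, limma adjusted p = 8.71e-07) to 2.08 (Abcc3, SE 0.0563, limma adjusted p = 2.26e-07).

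Set against both Hepa1-6 scramble and CT26 shLucif of the same table, the libraries labelled Hepa1-6 shLucif had means between the others for 6 of the 8 genes. The exceptions were Abcb1a, at a mean of 13.2 FPKM against 8.63 in scramble and 10.7 in CT26 shLucif, and Abcc4, at 10.3 FPKM against 19.0 and 18.5. The pair Abcb1a and Abcb1b made up 53.3% to 56.1% of the sum of all 8 genes in them, 19.0% to 20.8% in scramble and 65.4% to 66.5% in CT26 shLucif. The plot of levels in the knockdown experiment shows all 6 groups.

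**Figure D4:**
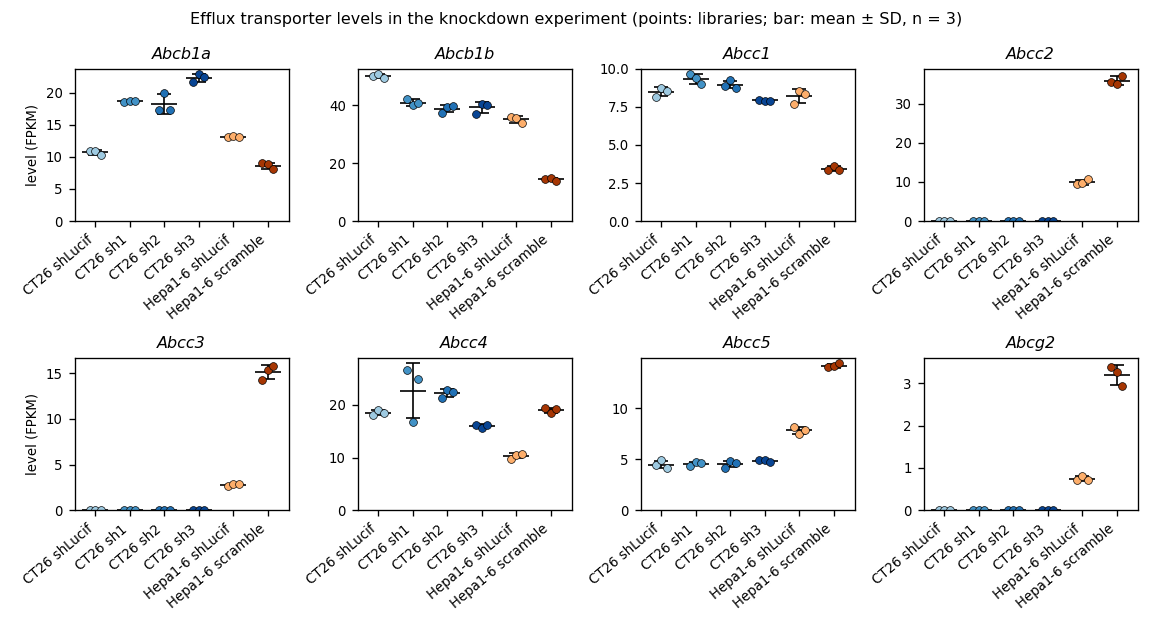
FPKM of the 8 transporters in each library of the knockdown experiment (points), with the mean and SD of 3 libraries as bars; each panel has its own axis from 0. Abcc2, Abcc3 and Abcg2 are near 0 in all 4 CT26 groups, and the libraries labelled Hepa1-6 shLucif lie between scramble and CT26 shLucif in 6 of the 8 panels.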

How the data were processed

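Per the labels, RNA was total RNA, reads were paired and trimmed with Skewer, and a SMARTer kit was used for some samples that are not named. The submitters' processing notes list GRCm38, HISAT2, STAR, DESeq2 and edgeR, and which of them made the values is not given in the sources used here. The authors deposited FPKM in 1 table per experiment, so depth is unknown, no counting interval can be given, and levels are compared within a table. Of 45 labelled samples, 30 have a column that matches, and 21 columns that match no label were not used. The tables were assigned by column names, and the sh1 columns as a group.

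Differences were tested with limma 3.58.1 (R 4.3.3, mean-variance trend, two-sided) on log2(FPKM + 1), which understates fold changes of low genes, for genes at 1 FPKM or more in at least 3 libraries of a model. A model was fitted per line within each experiment, and the comparisons between lines used all 12 libraries of the drug table. The fit was also run on simulated data with known changes, with noise drawn independently for each library. Such data cannot show whether the spread between the real libraries is technical. With 3 libraries against 3 the smallest two-sided p of an exact permutation test is 0.1, so none was used. Coordinates and overlaps are from GENCODE on GRCm38, promoter windows from RefSeq on GRCm38.p6; figures were drawn with Python 3.11.15 and matplotlib 3.10.9.

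The 8 genes, the pathway and marker lists and the alternatives were chosen with earlier results of these data known, so no adjusted p is independent evidence. From the pathway lists, at most the 3 called genes with the largest absolute log2 fold change per list and comparison are named, and for each transporter tested in the CT26 knockdown the 2 genes most alike. Some genes that this rule names are not reported here. Alternatives were a pseudocount of 0.1, no filter, a minimum of 5 FPKM, quantile normalization, the replicate number as a block, each library left out and 1 model per table.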

Additional observations from a re-analysis of the deposited data

How the results depend on the processing

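The number of transporters called stayed within 1 of the main count in each comparison and alternative, and none of the 28 called transporter changes turned sign in any alternative run. The call of Abcc1 with sh1 was the 1 that was lost, as given above and with quantile normalization (0.09, limma adjusted p = 0.108), which in turn called Abcc1 with sh3 (-0.15, 0.00836). Counts over all genes moved for stk. In CT26, 85 genes became 14 without a filter, 133 with a minimum of 5 FPKM, 4 with the replicate block, 204 in 1 model and 2 to 92 with 1 library left out (within 1.5 times the main count only without stk library 3). In Hepa1-6, 175 became 4, 473, 4, 928 and 8 to 59 in the same settings, beyond 1.5 times for each library. The difference between lines went from 39 to 11 with the replicate block and to 7 to 28 with 1 library left out (within 1.5 times only without Hepa1-6 stk library 2). The cause was not tested.

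Signs turned only in values that passed no test: with a pseudocount of 0.1, Abcc2 in the difference between lines (0.0019), and with quantile normalization, Abcc5 with sh3 (-0.0098), Abcc1 over the hairpins (-0.0086), and Abcb1b (0.031) and Abcc5 (-0.017) in sh3 against sh1 and sh2. Leaving out 1 library gave ranges across 0 for Abcc5 with stk in CT26 (-0.066 to 0.00054), with sh1 (-0.017 to 0.077) and with sh2 (-0.028 to 0.066), Abcc1 with stk in Hepa1-6 (-0.015 to 0.042), Abcc4 in the difference between lines (-0.026 to 0.098), and Abcb1b in sh3 against sh1 and sh2 (-0.043 to 0.016).

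Same-numbered libraries showed no strong shared deviation (correlations between -0.05 and 0.095, against -0.112 to 0.079 for libraries with different numbers). With so few libraries per group this cannot exclude that the numbers pair the samples. The main models did not use the numbers. The replicate block, which leaves out the sh1 columns, called Abcc4 with sh2 (limma adjusted p = 0.0039) and sh3 (0.0075) and changed no other transporter call. Depth is unknown, so levels near 0 have no floor.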
